A study of Homo sapiens with 12 samples.

Results

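The 10 genes described here encode cytosolic chaperones of the HSP70, HSP90, HSP110 and J-domain families, and were taken by gene symbol from a table of 36459 symbols measured in HEK293, a human embryonic kidney cell line. Of those symbols 21909 had a count in some library and 14209 passed the filter on low counts, and all 10 chaperone genes were among them. By their usual behaviour, 5 are constitutive (HSPA8, HSPA2, HSPA4, HSP90AB1 and DNAJA1) and 5 stress-inducible (HSPA1A, HSPA1B, HSPH1, HSP90AA1 and DNAJB1). They were chosen by symbol with measured values of these libraries, the results of earlier comparisons between the 4 groups, already known. Their values are therefore a description, and their p-values, taken from a fit over all genes, are not independent support. The groups were oleic acid + FAC, FAC alone (ferric ammonium citrate, an iron salt given to bring on ferroptosis), oleic acid alone (a monounsaturated fatty acid) and vehicle, with 3 libraries each. The labels state neither doses nor treatment times, nor whether replicates came from separate cultures, so a p-value here covers the spread between libraries, which may be technical. No ammonium citrate control without iron was among the groups. FAC and vehicle cells were compared to ask what the iron salt does, and the groups with oleic acid to ask whether the fatty acid alters it.

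HSP70 proteins bind short hydrophobic stretches of unfolded proteins in a cycle driven by ATP. J-domain proteins bring them substrates and trigger ATP hydrolysis, and HSP110 proteins act as nucleotide exchange factors that release the substrate. HSP90 dimers act later, on nearly folded clients such as kinases and hormone receptors. Under heat or other proteotoxic stress the transcription factor HSF1 binds heat shock elements, inverted repeats of the letters GAA, and raises the inducible members, while constitutive members are made in unstressed cells too.

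Promoter sequences of 4 of the genes are shown because the family is classically under heat shock element control: HSPA8 and DNAJA1, which were lower with FAC, HSPA1A as the standard inducible gene, and HSPH1, an inducible gene that passed no test. Each runs from 250 bases before to 50 bases after the RefSeq gene start on GRCh38.p14, 5′ to 3′ on the gene's own strand, and capitals mark the inverted repeats GAANNTTC and TTCNNGAA, overlapping matches joined.
HSPA8 (chr11:123062087-123062386, minus strand): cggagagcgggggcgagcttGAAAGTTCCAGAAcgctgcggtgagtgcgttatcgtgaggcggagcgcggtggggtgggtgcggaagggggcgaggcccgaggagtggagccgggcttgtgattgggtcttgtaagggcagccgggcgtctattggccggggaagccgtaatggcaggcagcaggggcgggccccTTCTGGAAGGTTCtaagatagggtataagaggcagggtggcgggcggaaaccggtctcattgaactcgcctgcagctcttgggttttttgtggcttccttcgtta
DNAJA1 (chr9:33025023-33025322, plus strand): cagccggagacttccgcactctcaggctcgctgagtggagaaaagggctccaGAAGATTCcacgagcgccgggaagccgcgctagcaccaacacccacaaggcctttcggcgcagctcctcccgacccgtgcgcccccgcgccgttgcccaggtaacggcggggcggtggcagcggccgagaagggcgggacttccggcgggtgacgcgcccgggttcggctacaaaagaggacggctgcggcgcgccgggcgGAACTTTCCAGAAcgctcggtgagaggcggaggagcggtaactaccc
HSPA1A (chr6:31815293-31815592, plus strand): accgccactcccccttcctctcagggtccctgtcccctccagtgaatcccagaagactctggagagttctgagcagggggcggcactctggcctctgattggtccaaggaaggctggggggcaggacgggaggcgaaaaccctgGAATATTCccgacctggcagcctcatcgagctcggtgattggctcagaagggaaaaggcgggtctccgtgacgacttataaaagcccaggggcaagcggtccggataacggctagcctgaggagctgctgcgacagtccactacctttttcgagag
HSPH1 (chr13:31162339-31162638, minus strand): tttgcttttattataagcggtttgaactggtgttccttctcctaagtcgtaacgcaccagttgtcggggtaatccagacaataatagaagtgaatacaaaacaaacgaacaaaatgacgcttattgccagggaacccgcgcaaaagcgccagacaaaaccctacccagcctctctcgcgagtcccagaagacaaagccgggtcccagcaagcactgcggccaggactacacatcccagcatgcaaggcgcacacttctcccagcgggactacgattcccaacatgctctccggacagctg
HSPA8 held a 13-base stretch with 3 alternating units beginning 230 bases before its start and another beginning 55 bases before it. DNAJA1 held an 8-base match beginning 198 bases before its start and a 13-base stretch beginning just after it. HSPA1A and HSPA1B each held 1 match, beginning 106 and 105 bases before the start. The pattern GAANNTTC occurred in 6.77% of 35116 promoters of the same length and in 4 of the 10 chaperone genes, and TTCNNGAA, searched as a separate pattern that may overlap it, in 7.74% and in 2 of the 10. The 3-unit patterns GAANNTTCNNGAA or TTCNNGAANNTTC occurred in 0.49% of promoters and in HSPA8 and DNAJA1. All of these read alike on both strands, singly or as a pair. The windows of HSPA4 and HSPH1 did not hold these letters. The 5′ end of the most counted GENCODE 29 transcript (GRCh38, whose primary chromosomes share coordinates with the RefSeq build) lay within the window for these 6 genes, for HSPA8 199 bases before the RefSeq start, for DNAJA1 62, for HSPA1A 79, for HSPA1B 3, for HSPA4 51 and for HSPH1 at the start itself. For the other 4 it lay outside. It was 273 bases before the RefSeq start for HSPA2, and after it by 893 bases for HSP90AB1, 10851 for DNAJB1 and 52558 for HSP90AA1, so their windows, which held none of these letters, are not the promoter of the transcript mainly counted. The second HSPA8 stretch and the DNAJA1 stretch just after the start lie downstream of the 5′ end of the gene's most counted transcript. That transcript held 34.3% to 49.7% of HSPH1 counts and 50.1% to 59.1% of HSPA4 counts by library. The starts of the other HSPH1 and HSPA4 transcripts were not compared with the windows. For the 10 genes only the first promoter listed per symbol was searched, whereas the 35116 were not cut to 1 per symbol. The percentages are therefore only a rough background. Matches are letters in a sequence and no binding was measured.

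Library totals ran from 14098216 to 18717397 counts. TFRC, the transferrin receptor, which cells lower when iron is plentiful, averaged 19.5 ± 2.62 CPM (counts per library total, adjusted by trimmed mean of M values, TMM, factors) in FAC cells, against 122 ± 10.6 CPM in vehicle cells (SD, n = 3 each). All 6 markers of the HEK293 lineage were tested, VIM highest at 696 CPM in vehicle cells and PAX2 lowest at 5.47 CPM, and UMOD of mature kidney was at 0. The most abundant markers of other cell types in vehicle cells were LRP2 (mature kidney, 8.10 CPM), COL1A1 (fibroblast, 15.6), CD68 (blood, 3.51), ESAM (endothelium, 0.99) and APOA1 (hepatocyte, 0.095). LRP2 and COL1A1 thus lay above PAX2. Replicate 3 of the oleic acid group and replicate 3 of the oleic acid + FAC group stood apart. The SD over genes of their deviations from the group mean was 0.41 on the log2 scale in both, against 0.25 to 0.33 in the other 10. These deviations correlated with transcript length at r = -0.52 and -0.39 (across genes, which are not independent replicates), and in the other 10 libraries at -0.23 to 0.36. In replicate 3 of oleic acid + FAC 12.1% of the counts were mitochondrial mRNA, against 3.33% to 7.50% in the others.

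The FAC effect was the main difference in this family. With and without oleic acid, the cells given FAC had less HSPA8, HSPA2 and DNAJA1 mRNA, and over all 6 FAC libraries against the 6 without FAC also less DNAJB1 and HSPA1B. Both HSP90 genes, HSPA4 and HSPH1 did not pass the test. So 5 of the 10 fell in the comparison of 6 with 6 libraries and none rose, against 8.76% of all genes tested that changed there, 5.48% lower and 3.27% higher. By class, 3 of the 5 constitutive genes fell (HSPA8, HSPA2 and DNAJA1), and 2 of the 5 inducible ones (DNAJB1 and HSPA1B). The HSPA1B call is the weakest of these, because reads cannot be divided with certainty between HSPA1B and HSPA1A. Summed, the pair did not pass over 6 against 6 libraries (log2 fold change -0.56, edgeR adjusted p = 0.0899). The HSPA1B call held in only 6 of the 12 fits that left out each library in turn. The classes' median log2 fold changes were -0.93 and -0.49, beside 0.00 over all 14209 genes. Calls are from edgeR's quasi-likelihood test, with Benjamini-Hochberg adjustment over all genes and a threshold of 0.05. Without TMM scaling the split of calls over all genes was 206 higher and 1003 lower in place of 465 and 779.

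HSPA8 encodes HSC70, the constitutive HSP70 of the cytosol, which also uncoats clathrin vesicles and serves chaperone-mediated autophagy. The gene lies on chromosome 11 at 123057489 to 123063230 (GRCh38, minus strand). It stood at 437, 411 and 331 CPM in the 3 oleic acid + FAC libraries, 438, 400.1 and 533 CPM with FAC, 1084, 1257 and 727 CPM with oleic acid and 1007, 1218 and 1161 CPM with vehicle. Every library with FAC lay below every library without it. FAC against vehicle gave a log2 fold change of -1.31 (SE 0.19, edgeR adjusted p = 0.0082). Oleic acid + FAC against oleic acid, which shares no library with that comparison, gave -1.38 (SE 0.20, adjusted p = 0.00505). Over 6 against 6 libraries the change was -1.34 (SE 0.14, adjusted p = 1.57e-04), ranked 24 of 14209 genes by p. HSPA8 lost its call in FAC against vehicle without the first FAC library (adjusted p = 0.0593) or the third vehicle library (0.0513), with log2 fold changes of -1.28 both times.

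HSPA2, an HSP70 best known for its role in sperm development and made at a low level in many tissues, lies on chromosome 14 at 64535905 to 64546173. It had 8.49, 5.68 and 8.73 CPM with oleic acid + FAC, 7.67, 5.95 and 6.68 CPM with FAC, 17.8, 15.5 and 18.8 CPM with oleic acid and 20.6, 14.4 and 11.2 CPM with vehicle. The groups with and without FAC did not overlap, although the third vehicle library, at 11.2 CPM, came near. The log2 fold change was -1.18 in both FAC against vehicle (SE 0.23, edgeR adjusted p = 0.0252) and oleic acid + FAC against oleic acid (SE 0.23, adjusted p = 0.0210). Over 6 against 6 libraries it was -1.18 (SE 0.16, adjusted p = 8.13e-04). Leaving out any library but the third vehicle one ended the call in FAC against vehicle (adjusted p = 0.0810 to 0.121 without the others), as did leaving out the second oleic acid + FAC library (0.0906) or the first oleic acid library (0.0729) in the other comparison.

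HSPA1A and HSPA1B are the classical heat-inducible HSP70 genes and encode nearly the same protein. They lie near each other on chromosome 6, HSPA1A at 31815464 to 31817946 and HSPA1B at 31827735 to 31830255. Of the 31-base words in the HSPA1A transcripts 73.6% also occurred in HSPA1B, so the division of reads between the 2 genes is uncertain. HSPA1A measured 1029, 1172 and 2283 CPM with oleic acid + FAC, 1097, 961 and 1678 CPM with FAC, 1432, 1673 and 2550.3 CPM with oleic acid and 1796, 1922 and 2149 CPM with vehicle. Its groups overlapped, the third oleic acid + FAC library lying above all 3 vehicle libraries, and its log2 fold change of -0.49 over 6 against 6 libraries did not pass (SE 0.22, edgeR adjusted p = 0.187). HSPA1A passed there with replicate 3 of oleic acid + FAC left out (-0.71, adjusted p = 0.0241), with no TMM scaling (0.0399) and with a replicate block (0.00853). HSPA1B measured 1007, 1093 and 1545 CPM with oleic acid + FAC, 1045, 882 and 1495 CPM with FAC, 1493, 1614 and 2259.7 CPM with oleic acid and 1726, 1869.8 and 1961 CPM with vehicle. Its ranges met only at the edge, since 1545 and 1495 CPM with FAC lay just above the first oleic acid library at 1493 CPM. HSPA1B fell by 0.63 on the log2 scale over 6 against 6 libraries (SE 0.16, edgeR adjusted p = 0.0264) and passed in neither comparison of 3 with 3. In each of these it passed in 2 of 16 alternative fits. Both passed with same-numbered libraries as a replicate block (-0.56, edgeR adjusted p = 0.0308 in oleic acid + FAC against oleic acid). That comparison also passed without TMM, and FAC against vehicle without the third oleic acid and oleic acid + FAC libraries together. The call over 6 against 6 ended without the first or second oleic acid + FAC library, the first or second FAC library, or the second or the third vehicle library, 6 of the 12 left out in turn, whose adjusted p ran from 0.0103 to 0.0717. It also ended with counts summed from transcripts (edgeR adjusted p = 0.742), which hold few of the HSPA1B counts.

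Because reads cannot be divided with certainty, the counts of HSPA1A and HSPA1B were also summed. The sum had a log2 fold change of -0.56 over 6 against 6 libraries (SE 0.19, edgeR adjusted p = 0.0899) and of -0.67 in FAC against vehicle (SE 0.27, adjusted p = 0.313), so the pair as a whole did not pass. HSPA1A made up 51.2% to 60.2% of the pair's length-scaled level in oleic acid + FAC libraries, 51.8% to 53.5% in FAC libraries, 49.6% to 53.6% in oleic acid libraries and 51.3% to 52.9% in vehicle libraries. By gene counts the share was thus near even in all 4 groups, highest in the third oleic acid + FAC library. Only 6.42% of HSPA1B counts, 0.866% to 19.6% by library, lay on a transcript matched by identifier. The length used for HSPA1B is that of this matched transcript. The near-even share therefore rests on HSPA1B counts that lie mostly on unmatched transcripts, whose lengths were not used.

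Among the J-domain partners, DNAJA1 encodes a farnesylated class A protein that works with HSC70 in folding and import, on chromosome 9 at 33025211 to 33039907. DNAJA1 had 134, 109 and 193 CPM with oleic acid + FAC, 128, 110.4 and 178 CPM with FAC, 255, 254 and 306 CPM with oleic acid and 262, 259 and 293 CPM with vehicle. No FAC library reached the lowest library without FAC. Its log2 fold change was -0.97 in FAC against vehicle (SE 0.21, edgeR adjusted p = 0.0427), -0.90 in oleic acid + FAC against oleic acid (SE 0.21, adjusted p = 0.0416) and -0.93 over 6 against 6 libraries (SE 0.15, adjusted p = 0.00210). Leaving out any library but the third FAC one (adjusted p = 0.0482) ended the first call, with adjusted p of 0.109 to 0.182, and leaving out any but the third oleic acid + FAC one (0.0168) ended the second, with 0.0665 to 0.162.

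DNAJB1 encodes HSP40, the stress-inducible class B partner that with HSP110 helps HSP70 take aggregates apart, on chromosome 19 at 14514770 to 14529770. DNAJB1 had 73.1, 59.6 and 87.8 CPM with oleic acid + FAC, 72.6, 59.1 and 90.2 CPM with FAC, 115, 108 and 152 CPM with oleic acid and 119, 109.6 and 129.7 CPM with vehicle. These groups did not overlap either. DNAJB1 fell by 0.73 on the log2 scale over 6 against 6 libraries (SE 0.13, edgeR adjusted p = 0.00436), and its values of -0.69 in FAC against vehicle (adjusted p = 0.0981) and -0.76 in oleic acid + FAC against oleic acid (adjusted p = 0.0508) did not pass. In FAC against vehicle DNAJB1 passed in 6 of 16 alternative fits, none of them with a single library left out. In oleic acid + FAC against oleic acid DNAJB1 passed in 7 of 16. These 7 included the fit with same-numbered libraries as a replicate block (-0.77, edgeR adjusted p = 0.00234). They also included the fit without replicate 3 of oleic acid + FAC (0.0413). Altogether 4 of the 10 genes, HSPA8, HSPA2, DNAJA1 and DNAJB1, were lower in all 6 FAC libraries than in all 6 others, against 4.04% of all genes tested. The reverse, higher in all 6, held for none of the 10 and for 2.8% of all genes. In each of the 21 alternative fits over 6 against 6 libraries these 4 were called, with adjusted p up to 0.00116, 0.00372, 0.00898 and 0.0164 in that order.

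**Figure D1:**
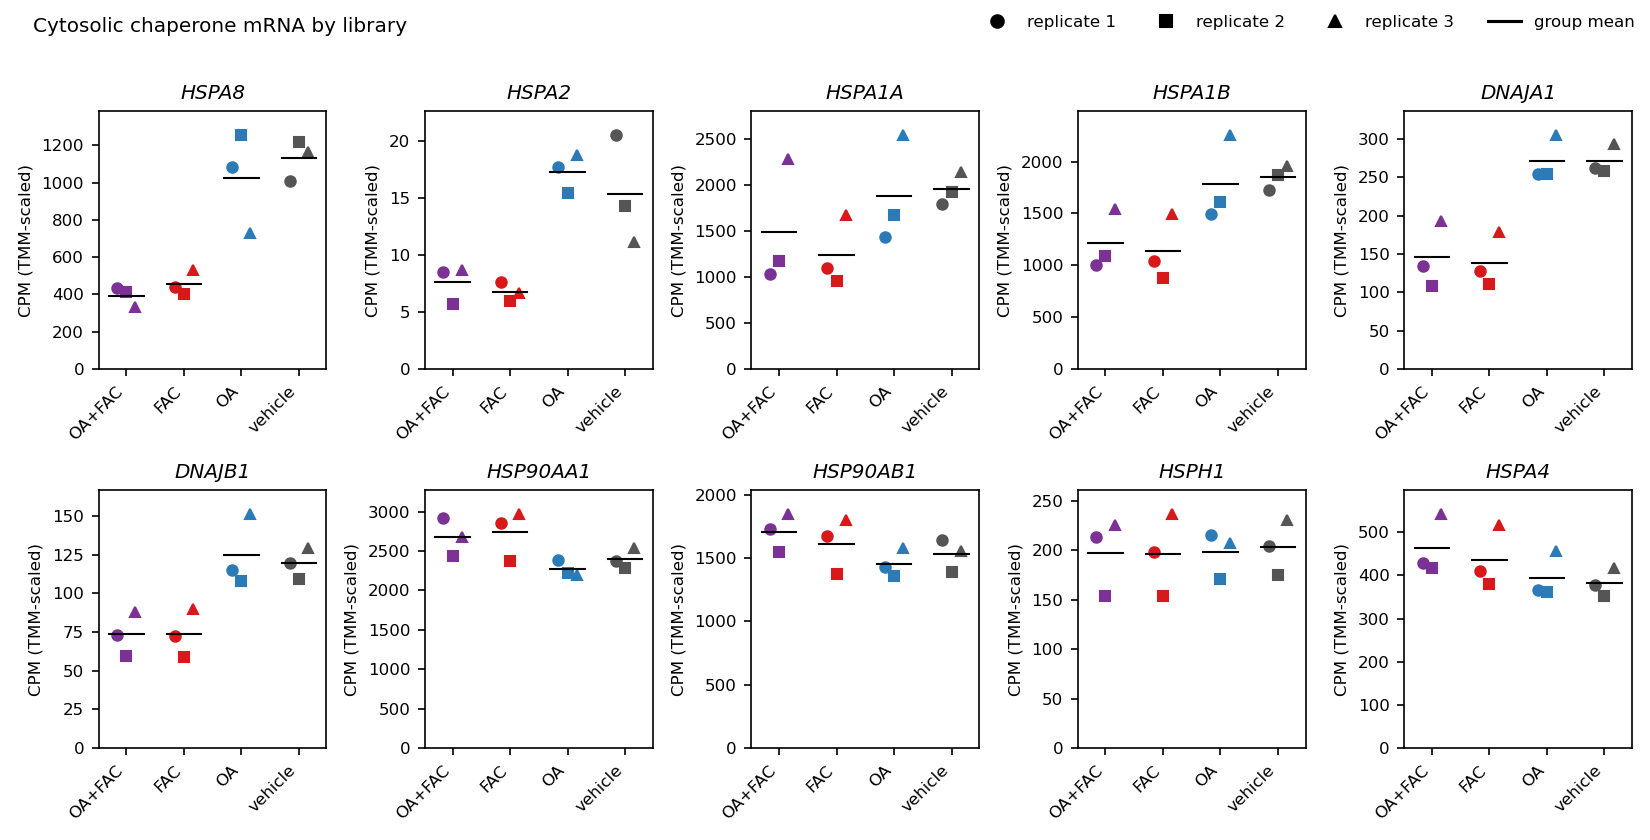
TMM-scaled CPM (vertical axis, from 0) of each chaperone gene in the 12 libraries, by group (OA, oleic acid), with replicate numbers as marker shapes and group means as lines. HSPA8, HSPA2, DNAJA1 and DNAJB1 are lower in all 6 FAC libraries, while HSP90AA1, HSP90AB1, HSPH1 and HSPA4 overlap, and the third library is the highest of its group in all 4 groups for HSPA1A, HSPA1B, DNAJA1, DNAJB1 and HSPA4.

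HSP90AA1, the inducible cytosolic HSP90 on chromosome 14 at 102080738 to 102139699, had the highest mean CPM of the 10 genes in each group. It measured 2925, 2443 and 2683 CPM with oleic acid + FAC, 2856, 2377 and 2977 CPM with FAC, 2391, 2228 and 2191 CPM with oleic acid and 2378, 2285 and 2535 CPM with vehicle. Most FAC libraries lay above the others but the groups overlapped. HSP90AA1 had a log2 fold change of 0.22 over 6 against 6 libraries (SE 0.093, edgeR adjusted p = 0.182). It passed with DESeq2 (adjusted p = 0.0331) and with the length trend removed (0.0288).

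HSP90AB1, the constitutive HSP90 on chromosome 6 at 44246166 to 44253888, measured 1727, 1547 and 1853 CPM with oleic acid + FAC, 1675, 1374 and 1798 CPM with FAC, 1428, 1360.3 and 1584 CPM with oleic acid and 1646, 1389 and 1558 CPM with vehicle. The ranges ran into each other, and the log2 fold change of 0.15 over 6 against 6 libraries did not pass (SE 0.098, edgeR adjusted p = 0.370). Of the 31-base words of HSP90AB1 35.7% occur in another annotated gene, most in the pseudogene HSP90AB3P, and of those of HSP90AA1 29.01% do, so part of these counts is uncertain.

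The HSP110 proteins are distant HSP70 relatives. HSPA4, the constitutive one (APG-2), lies on chromosome 5 at 133051962 to 133106449 and averaged 464 ± 69.2 CPM with oleic acid + FAC, 436 ± 72.1 with FAC, 395 ± 54.2 with oleic acid and 382 ± 33.1 with vehicle (SD, n = 3 each). HSPA4 had a log2 fold change of 0.21 over 6 against 6 libraries (SE 0.11, edgeR adjusted p = 0.269). HSPH1, the inducible HSP105, lies on chromosome 13 at 31134974 to 31162388 and averaged 198 ± 38.5 CPM with oleic acid + FAC, 196 ± 41.5 with FAC, 198 ± 23.5 with oleic acid and 203 ± 28.0 with vehicle. HSPH1 had a log2 fold change of -0.03 (SE 0.13, edgeR adjusted p = 0.932), and its 4 group means lay within 1 SD of each other.

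**Figure D2:**
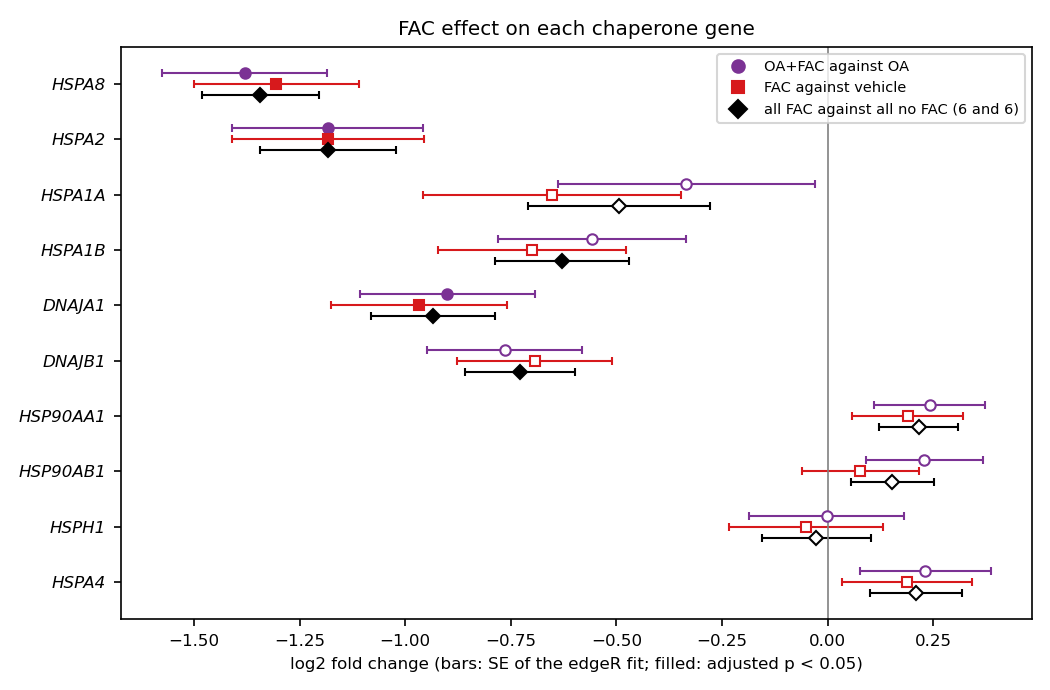
Log2 fold change (horizontal axis, bars SE derived from the edgeR F statistic) of each chaperone gene in oleic acid + FAC against oleic acid, FAC against vehicle and all 6 FAC libraries against the other 6, with filled markers where the adjusted p was under 0.05. HSPA8, at -1.31 to -1.38, and HSPA2, at -1.18, lie farthest left, and the 2 HSP90 genes, HSPH1 and HSPA4 lie between -0.05 and 0.24.

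In FAC against vehicle 3 of the 10 genes were called lower (HSPA8, HSPA2 and DNAJA1) and none higher, where 1.19% of all genes were called, 0.732% lower and 0.457% higher. In oleic acid + FAC against oleic acid the called genes were also HSPA8, HSPA2 and DNAJA1, where 2.21% of all genes were called, 1.45% lower. In these 2 groups same-numbered libraries deviated together, and with number as a replicate block 5 of the 10 were called, DNAJB1 and HSPA1B being added, and 740 genes in all in place of 314. Oleic acid + FAC against vehicle, which shares the vehicle libraries with one of these and the oleic acid + FAC libraries with the other, called HSPA8, HSPA2 and DNAJA1 too, against 3.07% of all genes, 2.04% lower and 1.03% higher. Without TMM scaling the calls over all genes were 32 higher and 84 lower in FAC against vehicle, in place of 65 and 104, and 40 and 264 in oleic acid + FAC against oleic acid, in place of 108 and 206. The median over all genes in oleic acid + FAC against oleic acid moved by -0.14 on the log2 scale under that setting.

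Oleic acid without FAC left all 10 genes uncalled. In oleic acid against vehicle their log2 fold changes ran from -0.14 (HSPA8) to 0.17 (HSPA2). With 1 library left out, HSPA8 ran from -0.32 (without the second oleic acid library) to 0.05 (without the third), and HSPA2 from -0.01 (without the third vehicle library) to 0.44 (without the first). None of the 14209 genes passed in edgeR, DESeq2 or limma-voom, a background of 0%, with 118 at an unadjusted p under 0.05 and none of the 10 among them. The SE of 0.19 for HSPA8 and 0.30 for HSPA1A sets how small a change these 3 and 3 libraries could show. In oleic acid + FAC against FAC the values ran from -0.22 (HSPA8) to 0.26 (HSPA1A), again with none of the 10 called and 0% of genes, while 576 genes, none of the 10, had an unadjusted p under 0.05 and DESeq2 called 1 other gene. The HSPA1A value rests on single libraries, at -0.17 with replicate 3 of oleic acid + FAC left out and 0.54 with replicate 3 of FAC left out.

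Whether oleic acid altered the FAC effect was tested as the interaction of both treatments. It passed for none of the 10 genes and for 0% of all genes (116 genes, none of the 10, at an unadjusted p under 0.05, and none by DESeq2 or limma-voom). For HSPA8 the interaction was -0.07 (SE 0.27), and over the 10 genes it ran to 0.32 for HSPA1A (SE 0.43), so differences of that size could not be resolved. The HSPA1A interaction was -0.12 with replicate 3 of oleic acid + FAC left out and 0.60 with replicate 3 of oleic acid left out, and that of HSPA8 ran from -0.27 without the third oleic acid library to 0.10 without the second.

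To set genes beside each other, counts were divided by transcript length and scaled to a common total per library (TPM). In FAC cells HSP90AA1 led with 1450 ± 67.0 TPM, followed by HSP90AB1 (1123 ± 54.3), HSPA1A (895 ± 176), HSPA1B (801 ± 134), HSPA8 (342 ± 14.9), HSPA4 (223 ± 13.6), DNAJA1 (103 ± 14.9), HSPH1 (95.7 ± 10.2), DNAJB1 (59.0 ± 6.02) and HSPA2 (4.16 ± 0.539). In vehicle cells HSPA1A led with 1506 ± 166 TPM, followed by HSPA1B (1391 ± 126), HSP90AA1 (1343 ± 74.0), HSP90AB1 (1124 ± 59.9), HSPA8 (896 ± 117), DNAJA1 (216 ± 16.9), HSPA4 (208 ± 17.3), HSPH1 (105 ± 13.6), DNAJB1 (101 ± 7.93) and HSPA2 (9.88 ± 2.78, SD, n = 3 throughout). The vehicle ranges of HSPA1A, HSPA1B and HSP90AA1 overlapped, as did those of DNAJA1 and HSPA4, and of HSPH1 and DNAJB1. Within each vehicle library HSPA1A lay above HSPA1B and HSP90AA1, and DNAJA1 above HSPA4, if only by 201 against 198 TPM in the first. HSPA1B and HSP90AA1, and HSPH1 and DNAJB1, changed places between vehicle libraries, so these neighbours cannot be ordered. In FAC cells the ranges of HSP90AB1 and HSPA1A, of HSPA1A and HSPA1B, and of DNAJA1 and HSPH1 overlapped. By these values the inducible HSP70 genes were among the highest of the family in cells given vehicle. The HSPA1B values use the length of its matched transcript, which held few of its counts.

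Summed by family in TPM, the HSP70 genes (HSPA8, HSPA2, HSPA1A and HSPA1B) came to 1810 ± 148 with oleic acid + FAC, 2041 ± 324 with FAC, 3318 ± 81.9 with oleic acid and 3803 ± 388 with vehicle. The HSP90 genes came to 2189 ± 528 with oleic acid + FAC, 2573 ± 118 with FAC, 2184 ± 320 with oleic acid and 2467 ± 101 with vehicle. Transcripts of HSP70 thus outnumbered those of HSP90 in all 6 libraries without FAC, at a ratio of 1.29 to 1.78 with oleic acid and 1.37 to 1.68 with vehicle. In FAC libraries the ratio was 0.653 to 1.11 with oleic acid and 0.699 to 0.950 without it. DNAJA1 and DNAJB1 together came to 138 ± 25.3 TPM with oleic acid + FAC, 162 ± 20.6 with FAC, 297 ± 15.7 with oleic acid and 317 ± 24.3 with vehicle. These sums rest on genes chosen with their values known and are given with no test. Those of HSP70, and their ratio to HSP90, include HSPA1B, whose length comes from a transcript holding few of its counts. In bulk RNA, fewer cells holding a transcript and less of it per cell cannot be told apart.

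**Figure D3:**
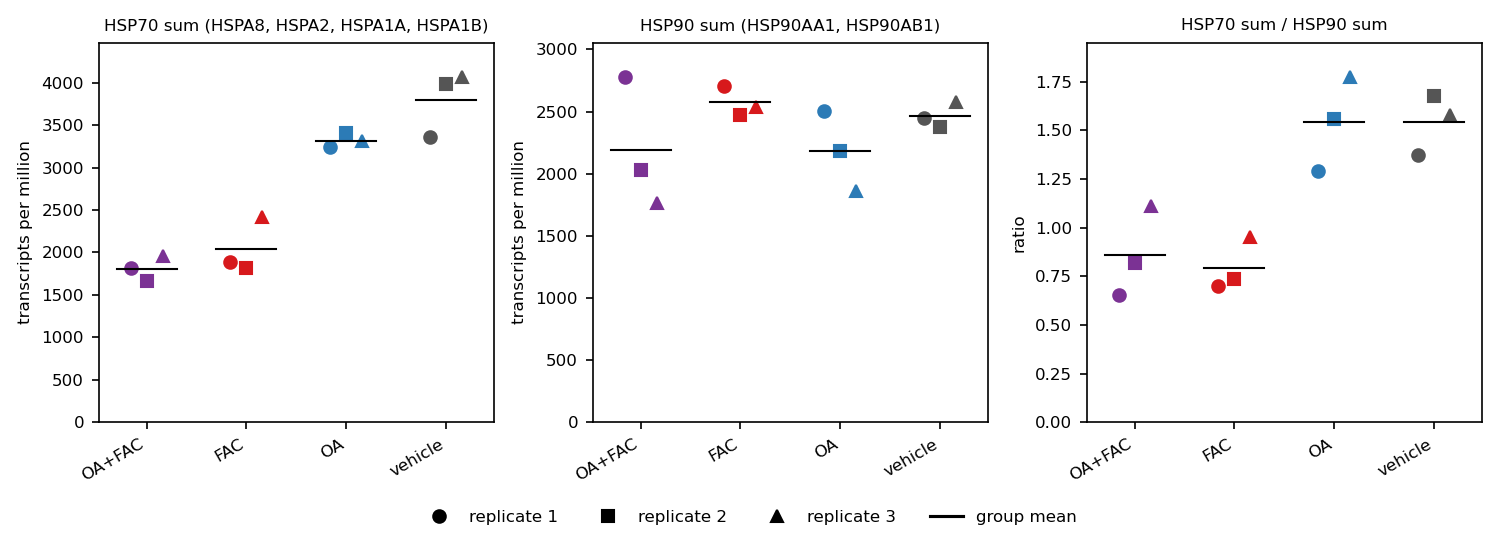
Length-scaled sums of the HSP70 genes and of the HSP90 genes (TPM, from 0) and their ratio in each library, by group (OA, oleic acid), with group means as lines. The ratio is 0.653 to 1.11 in the 6 FAC libraries and 1.29 to 1.78 in the 6 others, and only the third oleic acid + FAC library has a ratio above 1 among those with FAC.

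In the 2 libraries that stood apart HSPA8 was at its group's lowest, whereas replicate 3 was not the lowest in the FAC or vehicle group. HSPA1A was at its group's highest in replicate 3 of all 4 groups. HSPA8-224, a transcript of 2463 bases, held 34.7% of HSPA8 counts in the third library given oleic acid + FAC and 66.3% in the third given oleic acid alone, against 87.9% to 96.8% in the other 10. HSPA1A-201 held 72.6% and 84.6% of the HSPA1A counts on matched transcripts in the same libraries, against 98.0% to 100% in the others. Without both libraries HSPA8 had a log2 fold change of -1.38 over the remaining 5 against 5 (edgeR adjusted p = 3.03e-06), DNAJA1 -1.01 and HSPA2 -1.20. HSPA1A, which did not pass with all 12, fell by 0.57 without them (adjusted p = 0.0145).

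Likeness between the genes across the 12 libraries is given as Pearson r of log2 CPM, with no test, since all share libraries, scaling and the FAC split. DNAJA1 and DNAJB1 had r = 0.98, HSPA1A and HSPA1B 0.95, and DNAJA1 and HSPA1B 0.95. HSPA8 had r = 0.82 with DNAJA1, 0.80 with HSPA2, 0.77 with DNAJB1, 0.69 with HSPA1B and 0.45 with HSPA1A. HSP90AB1 had r = 0.85 with HSPA4 and 0.76 with HSP90AA1, and HSPA8 stood at -0.56 to -0.62 with these 3. HSPH1 had 0.67 with HSP90AB1, 0.56 with HSPA4 and 0.51 with HSP90AA1, but also 0.50 with DNAJB1 and 0.47 with HSPA1A, and 0.07 with HSPA8. Over all genes tested the 5 closest to HSPA8 were HIF1AN (r = 0.99), which hydroxylates the hypoxia factor, RBM12 (0.99), an RNA-binding protein, PPP1R21 (0.98), EXOC3 (0.98), a subunit of the exocyst tethering complex, and TMEM43 (0.98), a membrane protein of the nuclear envelope.

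Other chaperone lists were drawn up by role, with results of these data known. Among 5 further HSP70 family genes tested, HSPA1L, a testis HSP70 that lies beside HSPA1A on the opposite strand, was called, with 1.94 ± 0.32 CPM with oleic acid + FAC, 2.12 ± 1.15 with FAC, 4.30 ± 1.48 with oleic acid and 4.37 ± 1.23 with vehicle (log2 fold change -1.09, SE 0.28, edgeR adjusted p = 0.0275 over 6 against 6 libraries). Of 16 other cytosolic J-domain genes tested 3 fell and none rose, with a median of -0.10, beside 5.48% of all genes lower and 3.27% higher. These were DNAJA2, the near relative of DNAJA1 (-0.38, edgeR adjusted p = 0.0404), DNAJB2 (-0.34, 0.0330) and DNAJC5, the cysteine string protein of secretory vesicles (-0.31, 0.0320). With 1 library left out at a time, DNAJA2 was called only without the third oleic acid + FAC library, DNAJB2 only without that one or the third oleic acid library, and DNAJC5 only without the first oleic acid + FAC, the third oleic acid or the first vehicle library, and their adjusted p went up to 0.106, 0.0898 and 0.0918. HSPA1L lost its call without the second oleic acid + FAC, the second FAC, or the second or the third vehicle library (adjusted p up to 0.0819), and with counts summed from transcripts (-3.33, adjusted p = 0.281).

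None of the 10 cofactors of HSP70, the 16 co-chaperones of HSP90, the 14 subunits of the TRiC chaperonin and prefoldin or the 4 small heat shock proteins tested was called over 6 against 6 libraries by edgeR, with medians of 0.06, 0.05, 0.14 and 0.36. At an unadjusted p under 0.05 there were 2, 2, 0 and 1. Of 10 mitochondrial chaperones DNAJA3 fell (-0.29, edgeR adjusted p = 0.0235, lost without the second oleic acid + FAC, the first or the third FAC, the first oleic acid, or the second or the third vehicle library, at 0.0548 to 0.0705), and of 14 chaperones of the endoplasmic reticulum DNAJB9, a J-domain partner of BiP, rose (0.61, edgeR adjusted p = 0.00168). With 8.76% of all genes called in this comparison, 1 call in a list of 10 or 14 is near the background. DNAJB9 had 20.1 ± 0.93 CPM with oleic acid + FAC, 18.9 ± 2.36 with FAC, 11.6 ± 0.36 with oleic acid and 14.05 ± 1.75 with vehicle.

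The list of heat shock factor genes also held a binding protein of these factors, and of its 4 genes tested HSF2 rose, beside 3.27% of all genes. HSF2, which can form trimers with HSF1, had 109 ± 5.36 CPM with oleic acid + FAC, 105 ± 7.13 with FAC, 70.2 ± 1.01 with oleic acid and 71.9 ± 3.05 with vehicle (SD, n = 3 each). Its lowest FAC library, at 97.8 CPM, lay above the highest of the others, at 73.9 CPM. HSF2 had a log2 fold change of 0.55 in FAC against vehicle (SE 0.095, edgeR adjusted p = 0.0151), 0.63 in oleic acid + FAC against oleic acid (SE 0.095, adjusted p = 0.00689) and 0.59 over 6 against 6 libraries (SE 0.067, adjusted p = 3.45e-04), and was called in all 21 alternative fits of the last. HSF1 had 76.1 ± 13.4 CPM with oleic acid + FAC, 66.1 ± 1.12 with FAC, 82.3 ± 13.6 with oleic acid and 75.6 ± 5.34 with vehicle, and a log2 fold change of -0.15 over 6 against 6 libraries (SE 0.10, edgeR adjusted p = 0.393). Of 19 other genes listed as HSF1 targets and tested, 1 fell, a share like the 5.48% of all genes called lower, and none rose. The 1 was HSPA1L, named above, and whether HSF1 acts on it was not tested. Of the 19 fold changes 15 were above 0, with a median of 0.12, beside 0.00 over all genes.

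**Figure D4:**
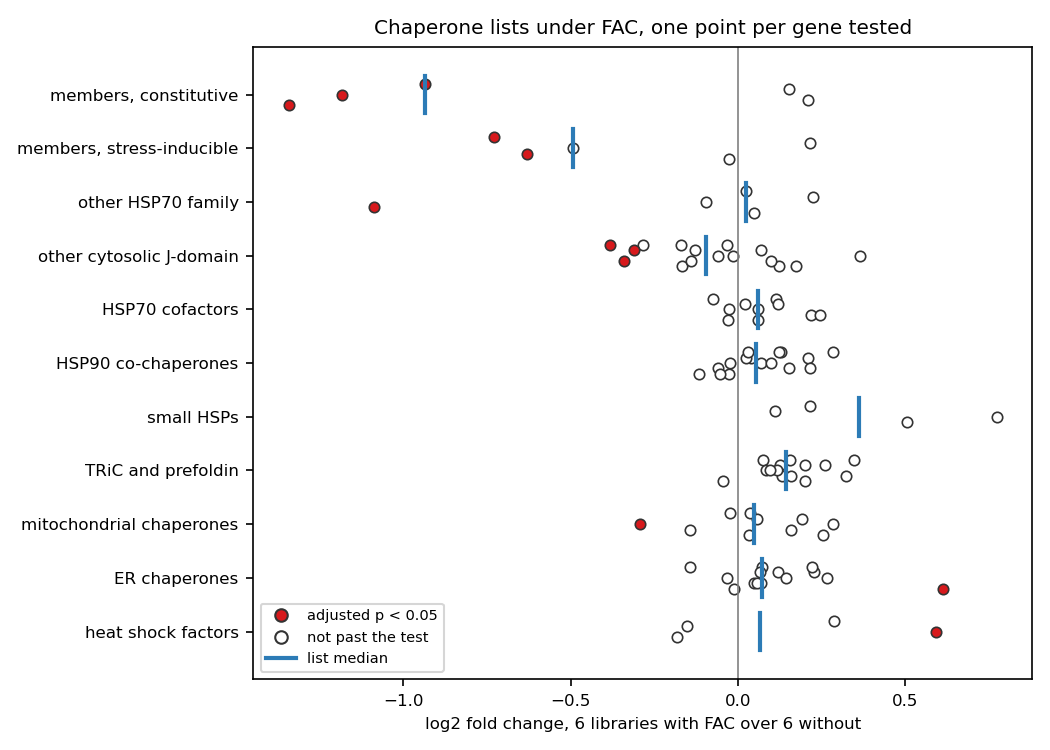
Log2 fold change over 6 FAC against 6 other libraries (horizontal axis) of every gene tested in 11 chaperone and heat shock factor lists, 1 point a gene, red where the adjusted p was under 0.05, with list medians as blue lines. The called points to the left are all HSP70 or J-domain genes, HSF2 and DNAJB9 lie to the right, and the HSP90 co-chaperones, HSP70 cofactors, TRiC with prefoldin and small HSPs have none.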

How the data were processed

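Poly-A RNA sequencing of HEK293 cells gave 12 libraries in 4 groups of 3. Per the labels, total RNA with an integrity number of 10 was made into libraries with Illumina TruSeq chemistry after poly-A selection. The authors deposited estimated counts per gene symbol and per transcript, and per the submitters' processing notes bcl2fastq 2.19, kallisto 0.46.1, sleuth 0.30.0 and GRCh38.p12 (hg38) were used. The estimated counts as deposited were already whole numbers. kallisto assigns reads to transcripts, so counts of near-identical copies can be divided wrongly.

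Genes kept by filterByExpr (14209) were fitted with edgeR 4.0.16 (R 4.3.3) quasi-likelihood on TMM-scaled counts, all 12 libraries together with 1 mean per group, with Benjamini-Hochberg adjustment over all genes and a threshold of 0.05. The comparison of 6 with 6 libraries averages both FAC effects. Each SE of a log2 fold change was derived as its absolute value divided by the square root of the test's F statistic. TPM used gene counts and count-weighted GENCODE 29 transcript lengths. Of HSPA1B counts 6.42% lie on transcripts matched to GENCODE 29 by identifier, so its transcript shares are not given. Promoters are RefSeq's, and all 10 genes matched by symbol.

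A count of 0 allows up to 3 counts, 0.160 to 0.213 CPM in a library, and covers counting error only. Alternatives were DESeq2 1.42.0, limma-voom (limma 3.58.1), no filter, no TMM, relative log expression factors, a length trend removed, a replicate block, transcript sums and libraries left out. The labels do not say that replicate numbers pair libraries. In oleic acid + FAC and oleic acid, all 3 same-numbered pairs had deviations from their group means correlated over 0.1 (0.30 to 0.61), as in oleic acid + FAC and FAC (0.22 to 0.34), so blocked values are given beside the results they change there. The steps were tested on simulated counts. The members and lists were chosen with earlier results of these data known. Named genes were the members, up to 4 called genes per chaperone list whose mean log2 CPM was 1 or more, the most abundant marker of each list, TFRC and the 5 genes most like HSPA8. HSF1, UMOD, PAX2 and HSP90AB3P were named outside that rule, after their values were seen.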

Additional observations from a re-analysis of the deposited data

How the results depend on the processing

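Members called in FAC against vehicle numbered 3, and 6 with a replicate block, 5 without the third oleic acid and oleic acid + FAC libraries together, and 0 to 2 with 1 library left out. In oleic acid + FAC against oleic acid 3 became 5 without TMM, 5 with the replicate block, 0 when only these 6 libraries were fitted, and 1 to 4 with 1 left out. In oleic acid + FAC against vehicle 3 became 5 without TMM, 5 with the replicate block, 6 without the 2 libraries, 1 with only the groups compared, and 1 to 2 with 1 left out. Over 6 against 6 libraries 5 stayed within 4 to 7 (7 with the replicate block, which added HSPA1A and HSPA4, the last higher), and the oleic acid comparisons and the interaction stayed at 0 in every alternative run. Calls over all genes moved too under several of these settings, as given in the next paragraph, so these moves are not particular to the chaperones. Fits with fewer libraries have fewer residual degrees of freedom, and the cause of the other moves was not tested.

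Genes called overall in FAC against vehicle were 169, and 498 with DESeq2, 431 with the replicate block, 444 with the length trend removed, 672 without the 2 libraries, 351 with only the groups compared and 27 to 79 with 1 left out. In oleic acid + FAC against oleic acid 314 became 761, 740 and 805 with the first 3 of these, 19 with only the groups compared and 55 to 449 with 1 left out. In oleic acid + FAC against vehicle 146 genes higher and 290 lower became 59 and 544 without TMM, and 677 and 851 with the replicate block. With 1 library left out 62 to 324 genes were called there. Over 6 against 6 libraries 1244 became 2211 with the replicate block, 2286 with the length trend removed and 2143 without the 2 libraries.

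Same-numbered pairs deviated together at r over 0.1 in 2 of 3 cases between FAC and vehicle. In oleic acid and vehicle, and in oleic acid + FAC and vehicle, 1 of 3 pairs did. Between FAC and oleic acid all 3 did (0.17 to 0.33). Of the 12 libraries 10 correlated best with their own number. With only 3 pairs for each pair of groups, these values cannot settle whether libraries were paired.

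In the 3 comparisons of FAC with no FAC at matched oleic acid, signs turned for values near 0. HSP90AB1 in FAC against vehicle ran from -0.0057 to 0.182 with 1 library left out. HSPH1 with 1 left out ran from -0.209 to 0.0974 in FAC against vehicle, -0.104 to 0.150 in oleic acid + FAC against oleic acid and -0.106 to 0.0497 over 6 against 6 libraries. HSPH1 in oleic acid + FAC against oleic acid also stood at 0.0132 with DESeq2, 0.0129 with relative log expression factors, 0.0558 with the length trend removed and 0.0017 with only the groups compared, and over 6 against 6 libraries at 0.0205 with the length trend removed. In the comparisons of oleic acid and in the interaction, where nothing was called, signs turned for most genes with 1 library left out, HSPA1A among them. Counts summed from transcripts, which hold few of the HSPA1B counts, turned HSPA1B from -0.61 to 0.69 in oleic acid + FAC against vehicle. Depth was high for 9 of the 10 genes, and HSPA2, at 5.68 to 20.6 CPM, is the least precisely counted.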
